A study of Mus musculus with 18 samples.

Results

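The fibrillar collagens are the chains that assemble into the long, banded fibrils of the arterial wall, and 9 of their genes were followed here in the mouse aorta. The members are Col1a1, Col1a2, Col2a1, Col3a1, Col5a1, Col5a2, Col5a3, Col11a1 and Col11a2, found by matching the Ensembl identifiers of the 54281 rows of the gene count table to mouse symbols. A filter of at least 10 counts in at least 6 mice left 15210 genes for testing, and 8 of the 9 members passed it, with Col2a1 below it. RNA was sequenced from the descending aorta of 18 male C57BL/6 mice, in 3 groups of 6. HGPS mice were labelled LMNAG609G and were 64 to 75 d old. They carry the mouse counterpart of the mutation of Hutchinson-Gilford Progeria Syndrome at the endogenous Lmna locus, so progerin is made wherever Lmna is expressed and not in a chosen cell type. In the 2-mo WT group, 5 mice were 62 d old and replicate 6 was 95 d, and the ages in the 24-mo WT group ran from 609 to 762 d. The 2-mo WT mice served as controls for both other groups, so that the comparisons share these 6 libraries.

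A fibrillar collagen molecule is a rope of 3 chains wound into a triple helix. Collagen I combines products of Col1a1 and Col1a2, collagen III is built from Col3a1 alone, and collagen V combines Col5a1 and Col5a2, with the Col5a3 chain in a minority of molecules. Collagens I and III form the bulk of arterial fibrils and carry load at high strain, whereas collagen V is buried in the fibril, where it starts assembly and limits the diameter. Collagens II and XI hold the same positions in cartilage, and chains of collagens V and XI can be combined in one molecule. All are made as procollagens, trimmed outside the cell and cross-linked by lysyl oxidase (LOX), the enzyme that the study examined in premature arterial stiffening.

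The chains share one sequence plan, a glycine codon as the first of every 3 codons of the helix. In the longest annotated transcripts, the uninterrupted run of such triplets was 337 triplets in Col5a3, 338 in Col1a1, Col5a1, Col11a1 and Col11a2, 339 in Col1a2, Col2a1 and Col5a2, and 344 in Col3a1. Every exon lying wholly inside the run had a length divisible by 9 bases, from 41 exons in Col1a1 to 48 in Col5a3, Col11a1 and Col11a2. The commonest length was 54 bases, or 6 triplets, found in 21 exons of Col1a1 and in 31 of Col11a1. The first whole 54-base exon of the run is printed for 6 chains to show what the counted reads have in common and where they differ, with the codons of the obligatory glycines in capitals (GENCODE M21 transcripts, GRCm38, coding strand).
Col1a1 exon 8 (chr11:94939904-94939957, + strand): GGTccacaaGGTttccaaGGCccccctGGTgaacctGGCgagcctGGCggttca
Col1a2 exon 8 (chr6:4515481-4515534, + strand): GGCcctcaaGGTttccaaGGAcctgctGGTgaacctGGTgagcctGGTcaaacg
Col3a1 exon 6 (chr1:45325360-45325413, + strand): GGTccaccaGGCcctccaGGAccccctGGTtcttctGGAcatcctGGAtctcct
Col5a1 exon 15 (chr2:27965251-27965304, + strand): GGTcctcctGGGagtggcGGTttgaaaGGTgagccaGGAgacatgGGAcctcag
Col5a2 exon 10 (chr1:45422386-45422439, - strand): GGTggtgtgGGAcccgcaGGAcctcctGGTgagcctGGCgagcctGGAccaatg
Col11a1 exon 15 (chr3:114108281-114108334, + strand): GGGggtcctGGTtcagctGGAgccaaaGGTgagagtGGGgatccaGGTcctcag

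Over the whole run, bases were identical at 73.3% of positions between Col5a1 and Col11a1 and at 48.8% between Col1a1 and Col11a1, 2 of the pairs with runs of the same length. The likeness did not extend to long shared stretches. Of the 31-base words in each longest transcript, none occurred on the same strand in a transcript of another gene for Col1a1, Col1a2, Col2a1, Col5a2, Col11a1 and Col11a2. The exceptions were 2 of 6089 words for Col5a3, 27 of 8376 for Col5a1 and 111 of 5534 for Col3a1. Col3a1 (chr1:45311538-45349706, + strand) and Col5a2 (chr1:45374321-45503282, - strand) lie side by side on chromosome 1 on opposite strands, and the other members are on 7 further chromosomes.

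The libraries held 12413229 to 30844775 counts, with the highest totals in HGPS mice. Levels are given as CPM (read counts scaled to the library total), and as CPM per kb of the longest protein-coding transcript where genes are compared with each other. A gene was called at a Benjamini-Hochberg adjusted p under 0.05 over all 15210 genes in edgeR's quasi-likelihood test, and errors of log2 fold changes are SE. The level of a gene in whole-tissue RNA cannot tell fewer cells of a type from less RNA per cell. Defining markers of smooth muscle were high in every aorta, but their summed level was lower in HGPS mice (20360 to 28350 CPM) than in 2-mo WT mice (30250 to 38850 CPM), and 5 of 8 were called lower. The summed level of 10 fibroblast markers, none of them a collagen, was 2343 to 3036 CPM in HGPS against 3919 to 4673 CPM in 2-mo WT and 3063 to 4184 CPM in 24-mo WT, with 8 called lower and 1 higher in HGPS against 2-mo WT. All 8 macrophage, all 8 brown fat and all 8 cell-cycle markers were called higher in HGPS than in 2-mo WT. So were 7 of 8 white fat markers, where 22% of all genes were higher. No fit used a white fat score. The part of these shifts in the collagen results was not tested. Fits with marker scores, each the mean log2 CPM of the tested markers of a list, are given beside the results. For smooth muscle and fibroblast markers, the summed levels in HGPS overlapped with neither WT group. Overlap of the scores themselves was not examined. A call lost in HGPS with these 2 scores in the fit is therefore not read as separating marker level from group.

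Most fibrillar collagen mRNA came from 3 genes. In 2-mo WT aorta the order per length was Col3a1 with 1348 ± 187 CPM per kb (SD, n = 6), Col1a2 with 955 ± 107, Col1a1 with 255 ± 37.3, Col5a2 with 141 ± 14.0, Col5a1 with 68.3 ± 6.75 and Col5a3 with 1.69 ± 0.184. Col11a2, with 0.0906 ± 0.0318, and Col11a1, with 0.0583 ± 0.0190, did not differ beyond their spread. Col2a1 closed the order. In 24-mo WT aorta Col1a2 was at 494 ± 115 and Col3a1 at 427 ± 61.8 CPM per kb. The ranges over mice overlapped, but in each of the 6 old mice Col1a2 was above Col3a1. This order depends on the length used, for with all annotated exons as the length the mean share of Col1a2 in old mice was 31.3% of the summed level and that of Col3a1 was 36.3%. The 9 genes together took a median of 1.55% of the scaled library total in 2-mo WT mice, 1.23% in HGPS mice and 0.654% in 24-mo WT mice. Across the 3 groups, 24-mo WT aorta was the poorest in fibrillar collagen mRNA, and its highest mouse at 0.880% lay below the lowest 2-mo WT mouse at 1.36% and below the lowest HGPS mouse at 0.960%.

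**Figure D1:**
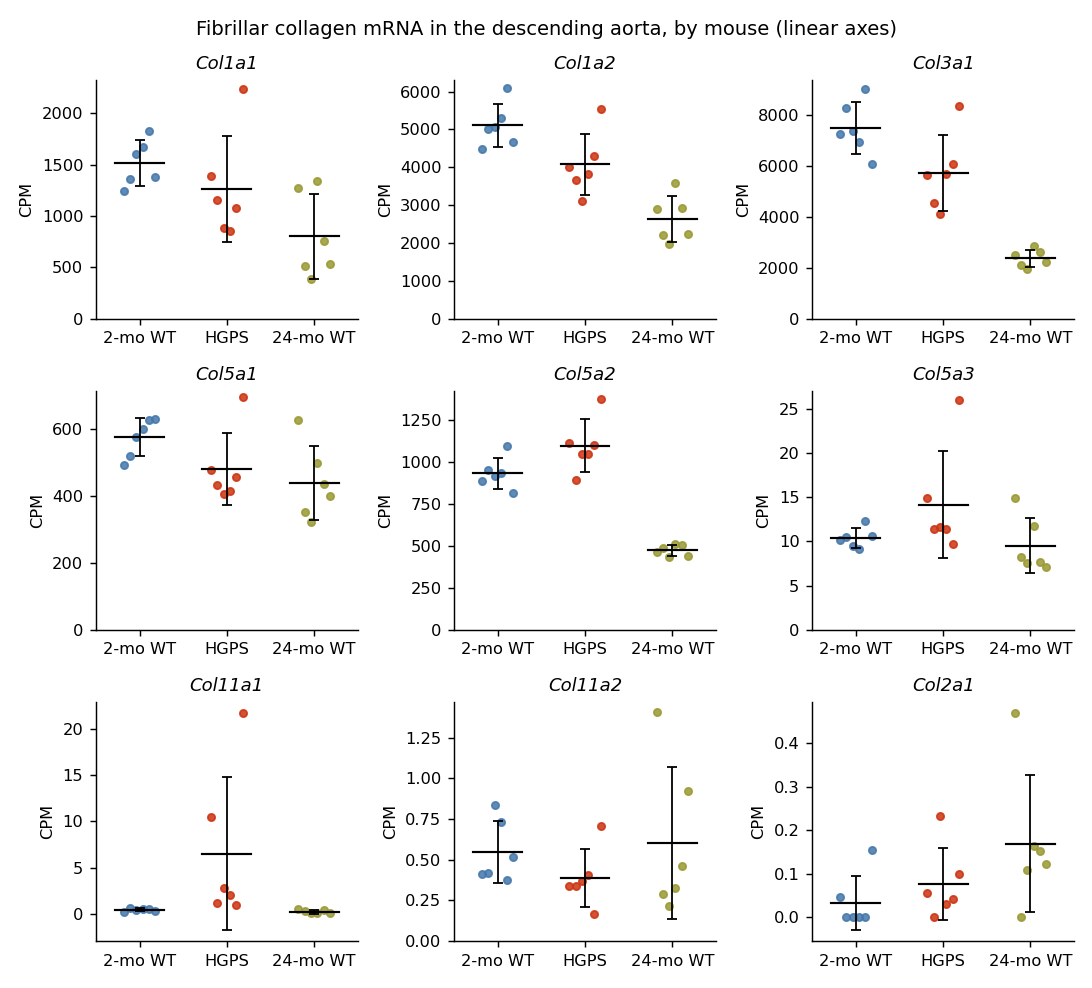
CPM (linear y axes) of each fibrillar collagen gene in the 6 mice of each group, with a point per mouse, a horizontal line at the mean and bars of 1 SD. Col3a1 and Col5a2 in 24-mo WT mice lie below every mouse of the other groups, Col11a1 is above 0.9 CPM in HGPS mice only, and HGPS replicate 6 is the highest HGPS mouse for 8 of the 9 genes.

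At 2 mo, 3 of the 8 tested members differed between HGPS and WT, 2 higher (Col5a2 and Col11a1) and 1 lower (Col3a1). Of all genes tested in this comparison, 22% were called higher and 21.2% lower, so the share of members called was not above that of genes at large. With the study's cut-offs of 1.5-fold and an adjusted p under 0.001, which 9.5% of genes passed, 1 member remained, Col11a1. This gene reached the count filter only through the HGPS mice. The cut-offs were applied here to the edgeR test. The study applied them to DESeq2 results and reports more genes passing than the 1445 found here. The median log2 fold change of the 8 members was -0.26, beside 0.00261 over all genes. With age the pattern was different, for 4 members were called lower in 24-mo than in 2-mo WT mice (Col1a1, Col1a2, Col3a1 and Col5a2) and none higher, where 5.38% of all genes were lower and 6.29% higher. The 3 genes Col1a2, Col3a1 and Col5a2 passed the study's cut-offs, against 2% of all genes. The median log2 fold change with age was -0.86 for the members and 0.00834 for all genes.

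Collagen I mRNA was lower with age and not detectably changed in HGPS. Col1a1 was read at 1241, 1364, 1600, 1675, 1825 and 1383 CPM in 2-mo WT replicates 1 to 6. The HGPS mice gave 1392, 1153, 885, 851, 1073 and 2234 CPM, and the 24-mo WT mice 1272, 513, 384, 1341, 756 and 536 CPM. All 3 groups overlapped, HGPS replicate 6 was above every WT mouse, and 24-mo WT replicates 1 and 4 were in the range of young mice. The log2 fold change was -0.26 ± 0.28 in HGPS (adjusted p = 0.479) and -0.92 ± 0.28 with age (adjusted p = 0.0370). The call with age was lost on leaving out any 1 of 2-mo WT replicates 2, 3, 4 and 5 or of 24-mo WT replicates 2, 3, 5 and 6, with adjusted p between 0.0564 and 0.0831 and log2 fold changes between -0.94 and -0.78. For protein, the study reports more collagen I in the carotid adventitia of aged WT mice. The source of this difference from the aortic mRNA was not tested.

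Col1a2, the partner chain of collagen I, gave the firmer measurement, since its spread within groups was smaller. Its level was 4476 to 6107 CPM in 2-mo WT mice (median 5042), 3119 to 5531 CPM in HGPS mice (median 3918) and 1969 to 3594 CPM in 24-mo WT mice (median 2569). Young and old WT mice did not overlap, as was the case for 6.28% of all genes, and the log2 fold change with age was -0.95 ± 0.14 (adjusted p = 0.000142). With smooth muscle and fibroblast scores in the fit, neither chain was called with age (-0.49 for Col1a2, adjusted p = 0.353, and -0.33 for Col1a1, adjusted p = 0.843). In HGPS it was -0.33 ± 0.14 (adjusted p = 0.0693), with 5 of 6 HGPS mice below every 2-mo WT mouse. Without HGPS replicate 6 it was -0.43 (adjusted p = 0.0154), and without 24-mo WT replicate 4, which enters the estimate of the spread, it was -0.33 (adjusted p = 0.0432).

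Col3a1, the single chain of collagen III, had the largest fall with age of the members. The 2-mo WT mice were read at 7270, 8286, 7383, 6951, 9047 and 6075 CPM and the 24-mo WT mice at 2524, 2110, 1937, 2848, 2615 and 2217 CPM. The highest old mouse was thus below the lowest young one, and the log2 fold change was -1.66 ± 0.15, or 0.317 of the young level (adjusted p = 2.6e-07). It stayed between -1.72 and -1.60 when any 1 mouse was left out. The HGPS mice lay between, at 5640, 4550, 4131, 5703, 6074 and 8384 CPM, with 5 of 6 below the lowest 2-mo WT mouse. The difference from 2-mo WT was small, -0.38 ± 0.14 (adjusted p = 0.0350), and was lost without any 1 of HGPS replicates 1, 2 and 3 or 2-mo WT replicates 2, 3 and 5, with adjusted p between 0.0507 and 0.0829. Without HGPS replicate 6 it was -0.52 (adjusted p = 0.00251). With brown fat and skeletal muscle scores in the fit it was -0.56 and not called (adjusted p = 0.0598). With smooth muscle and fibroblast marker scores in the fit it turned to 0.44 (adjusted p = 0.659), in a design where neither summed marker level overlapped between these groups. The study instead reports similar mRNA of collagens I, III and V in young WT and HGPS aorta, with media and adventitia measured apart. For collagen III protein it reports a small rise in the HGPS carotid media, which was not significant in the aortic media. Why the Col3a1 result differs was not tested.

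Of the collagen V chains, Col5a2 moved in opposite directions in HGPS and with age. It was read at 888, 949, 914, 931, 1096 and 815 CPM in 2-mo WT mice, at 1111, 894, 1044, 1046, 1103 and 1376 CPM in HGPS mice, and at 462, 486, 436, 509, 506 and 441 CPM in 24-mo WT mice. The old mice formed a narrow cluster (median 474 CPM) below all others, and HGPS and 2-mo WT overlapped. The log2 fold change was -0.98 ± 0.088 with age (adjusted p = 4.1e-07) and 0.23 ± 0.088 in HGPS (adjusted p = 0.0375). The small rise in HGPS was not called without any 1 of HGPS replicates 1, 5 and 6 or of 2-mo WT replicates 1, 2, 3, 4 and 6, with log2 fold changes of 0.16 to 0.24 and adjusted p between 0.0550 and 0.113. It was also not called without the count filter (adjusted p = 0.0552) or with only these 2 groups in the fit (adjusted p = 0.0603). It was lost with the replicate block (0.23, adjusted p = 0.0575), with brown fat and skeletal muscle scores (0.17, adjusted p = 0.371) and with smooth muscle and fibroblast scores (0.68, adjusted p = 0.203) as well.

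Col5a1, the chain present in nearly all collagen V, was called in neither comparison in the main test. Its median was 588 CPM in 2-mo WT (493 to 630), 445 CPM in HGPS (405 to 695) and 418 CPM in 24-mo WT (321 to 626). The log2 fold change was -0.26 ± 0.15 in HGPS (adjusted p = 0.169) and -0.39 ± 0.15 with age (adjusted p = 0.0980). Single mice decided both, since without HGPS replicate 6 the first was -0.39 (adjusted p = 0.0236) and without 24-mo WT replicate 1 the second was -0.52 (adjusted p = 0.0158). The difference with age was also called with brown fat and skeletal muscle scores in the fit (-0.69, adjusted p = 0.0171). Col5a3, a scarce chain, was read at 9.09 to 12.3 CPM in 2-mo WT, 9.69 to 26.0 CPM in HGPS and 7.15 to 14.9 CPM in 24-mo WT mice. Its log2 fold change was 0.44 ± 0.22 in HGPS (adjusted p = 0.110) and -0.12 ± 0.22 with age (adjusted p = 0.789).

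Col11a1, which encodes a collagen XI chain best known from cartilage, had the largest difference in HGPS of the members. The 2-mo WT mice gave 0.230, 0.652, 0.419, 0.487, 0.535 and 0.362 CPM, from 5 to 11 counts each. The HGPS mice gave 10.5, 1.13, 2.78, 2.03, 0.961 and 21.7 CPM, from 23 to 432 counts. Col11a1 passed the filter of 10 counts in 6 mice only through the HGPS mice, so it was tested because of the group where it is high. Every HGPS mouse was above every 2-mo WT mouse, as was true in one direction or the other for 21.9% of genes. The HGPS mice were spread widely, with replicates 1 and 6 far above the other 4. The log2 fold change was 3.86 ± 0.73 (adjusted p = 0.000364), and it was 2.94 without HGPS replicate 6 (adjusted p = 0.000868). It was no longer called when scores of brown fat and skeletal muscle markers entered the fit (2.21, adjusted p = 0.191) or with smooth muscle and fibroblast scores (4.74, adjusted p = 0.365). In 24-mo WT mice Col11a1 was at 0.0540 to 0.527 CPM, from 1 to 9 counts, and the log2 fold change with age of -0.80 ± 0.95 was within the error (adjusted p = 0.658). Even after the rise, the mean of Col11a1 in HGPS was 0.851 CPM per kb, beside 57.1 CPM per kb for Col5a1.

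Of the other cartilage-type chains, Col11a2 was not called and Col2a1 was not tested. Col11a2, the second collagen XI chain, was at 0.374 to 0.838 CPM in 2-mo WT, 0.167 to 0.705 CPM in HGPS and 0.216 to 1.41 CPM in 24-mo WT mice. Its log2 fold change was -0.48 ± 0.44 in HGPS (adjusted p = 0.404) and 0.16 ± 0.43 with age (adjusted p = 0.860), at 4 to 24 counts a mouse. The value with age took the other sign without 24-mo WT replicate 1 and under 3 other settings. Col2a1, the chain of collagen II, was read with 4 counts in all over the 2-mo WT mice, 10 over the HGPS mice and 18 over the 24-mo WT mice. It was at 0 counts in 4 of 6, 1 of 6 and 1 of 6 mice, and a count of 0 allows up to 0.0973 to 0.242 CPM at these totals (3 counts, counting error only). Being below the filter, Col2a1 was not tested for a difference.

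The upstream sequence of Col11a1 is shown beside that of Col3a1, the member with the largest rise in HGPS and the one with the largest fall with age. Each is the 130 bases before the RefSeq start (GRCm38.p6), and capitals mark CCAAT, the box bound by NF-Y, or its reverse complement ATTGG.
Col11a1 (chr3:114030410-114030539, + strand): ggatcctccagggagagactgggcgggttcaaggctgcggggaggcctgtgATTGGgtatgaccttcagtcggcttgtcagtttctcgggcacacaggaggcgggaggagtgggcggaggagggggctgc
Col3a1 (chr1:45311408-45311537, + strand): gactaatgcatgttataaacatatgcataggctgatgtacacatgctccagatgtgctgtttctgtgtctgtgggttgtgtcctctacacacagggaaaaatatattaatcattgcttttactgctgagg
Among the 6 members in the RefSeq promoter table, 250 bases upstream of the start held 1 match on either strand in Col11a1 (79 bases before the start), Col1a2 (109 bases before it) and Col5a3 (122 bases before it), and no match in Col3a1, Col5a1 or Col11a2. The same letters were found in 33.8% of all 32851 promoters. The window of Col3a1 was 35.2% G and C, against 57.6% to 76.4% in the other 5.

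HGPS and 24-mo WT mice were also compared directly, as a difference in level in which the 2-mo WT controls cancel. These groups differ in both genotype and age, which cannot be told apart here. In HGPS, 5 members were higher than in 24-mo WT and none was lower, where 23.8% of all genes were higher and 23.6% lower. The called genes were Col1a2 (0.63 ± 0.14, adjusted p = 0.0013), Col3a1 (1.28 ± 0.14, adjusted p = 1.09e-06), Col5a2 (1.21 ± 0.089, adjusted p = 5.6e-09), Col5a3 (0.57 ± 0.22, adjusted p = 0.0400) and Col11a1 (4.65 ± 0.79, adjusted p = 9.06e-05). With smooth muscle and fibroblast scores Col1a2 (1.09, adjusted p = 0.0565), Col5a3 (0.59, adjusted p = 0.595) and Col11a1 (3.20, adjusted p = 0.345) were no longer called. Col5a3 was also not called with brown fat and skeletal muscle scores (0.38, adjusted p = 0.319), by limma voom (0.51, adjusted p = 0.0554), with only these 2 groups in the fit (0.57, adjusted p = 0.0812) or with the replicate block (0.54, adjusted p = 0.0566). Groups did not overlap for Col3a1, Col5a2 and Col11a1, a property of 22.2% of all genes, and the same 3 passed the study's cut-offs, which 12.1% of genes did. Col1a1 missed the threshold at 0.66 ± 0.28 (adjusted p = 0.0579), but it was called on library totals alone (0.68, adjusted p = 0.0469), by limma voom (0.74, adjusted p = 0.0320) and without any 1 of HGPS replicates 3 and 4 and 24-mo WT replicates 1 and 4 (adjusted p from 0.0163 to 0.0458). Col5a3 was not called without any 1 of HGPS replicates 1 and 6, 2-mo WT replicates 1 and 2 and 24-mo WT replicates 2, 3, 5 and 6 (0.30 to 0.56, adjusted p from 0.0513 to 0.157).

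**Figure D2:**
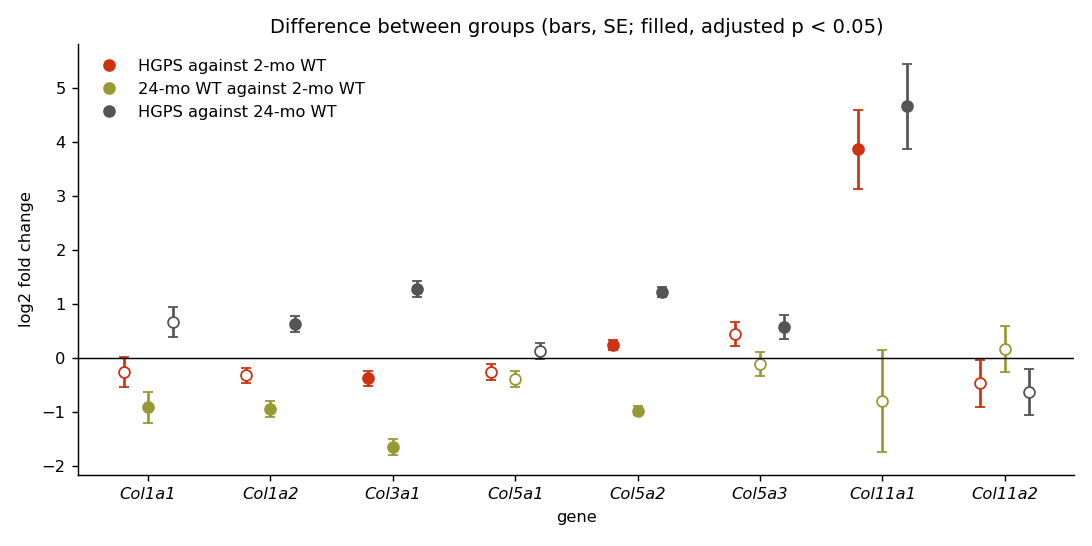
log2 fold change (y axis) of the 8 tested members (x axis) in the 3 comparisons, with bars of 1 SE and filled points where the adjusted p was under 0.05. With age Col1a1, Col1a2, Col3a1 and Col5a2 lie at -0.92, -0.95, -1.66 and -0.98, while in HGPS Col11a1 stands at 3.86 and the other genes lie between -0.48 and 0.44.

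The share of each chain in the summed CPM per kb of the 9 genes showed how the mixture was composed. Collagen III mRNA made up 48.6 ± 2.74% (SD, n = 6) in 2-mo WT, 46.1 ± 2.12% in HGPS and 36.6 ± 2.77% in 24-mo WT mice. The highest old mouse, at 39.3%, lay below the lowest HGPS mouse at 43.4% and the lowest 2-mo WT mouse at 45.5%. The 2 chains of collagen I together took 43.8 ± 2.46%, 43.7 ± 1.84% and 52.6 ± 3.70%. Collagen V took 7.64 ± 0.399%, 10.2 ± 1.10% and 10.8 ± 1.11%. In both HGPS and old mice the collagen V share was thus above that of 2-mo WT, where the highest mouse was at 8.33% and the lowest of the other groups at 8.92%. Col5a2 had the highest mean share of its chains in each group, at 5.09 ± 0.107% in 2-mo WT, 7.55 ± 0.972% in HGPS and 6.23 ± 1.06% in 24-mo WT. Col5a1 was at 2.49 ± 0.351%, 2.57 ± 0.202% and 4.42 ± 0.586%. In 24-mo WT replicate 1, Col5a1 (5.48%) was above Col5a2 (5.14%). Shares of one sum depend on each other and were not tested. They also depend on the length assigned to a gene, and with all annotated exons as the length the Col1a1 share in 2-mo WT was 14.7% in place of 9.23%, whereas the Col3a1 share was 48.5%. With that length the mean share in 24-mo WT was 7.62% for Col5a1 and 7.53% for Col5a2. The order of Col5a1 and Col5a2 in old mice thus depends on the length used.

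**Figure D3:**
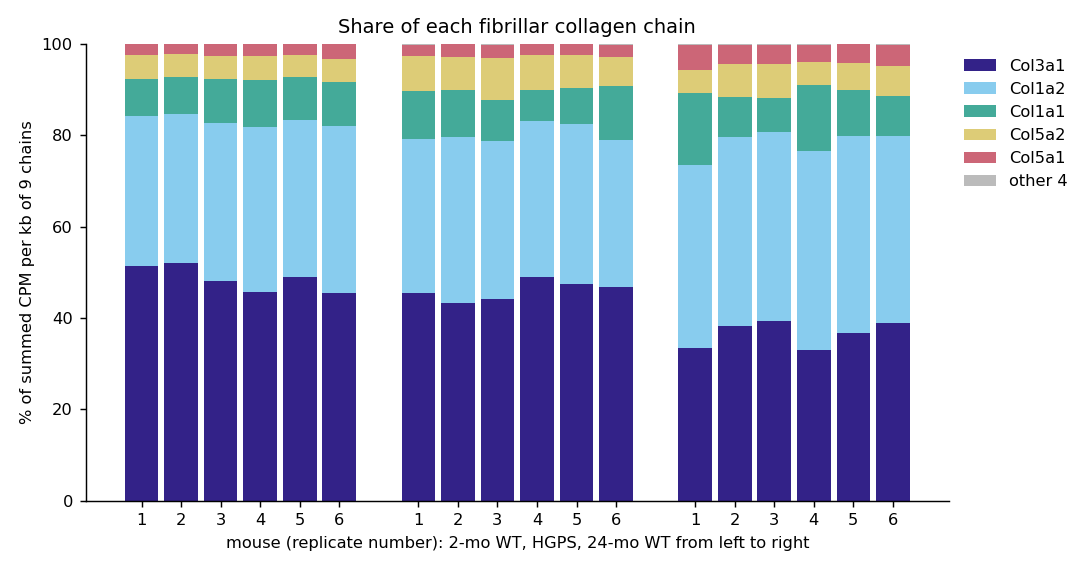
Percent of the summed CPM per kb of the 9 genes (y axis) taken by each chain in each of the 18 mice (x axis, replicate numbers within 2-mo WT, HGPS and 24-mo WT). Col3a1 takes 33.1% to 39.3% in the 24-mo WT mice and 43.4% to 52.0% in all others, and the 4 scarce genes are barely visible.

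Ratios between chains were computed within each library, so that they do not depend on library scaling, and were tested by a two-sided exact permutation test of the mean log2 ratio with Benjamini-Hochberg adjustment over 24 comparisons (8 ratios in 3 comparisons). The smallest p that 6 mice against 6 allow is 0.00216. Col1a1 was present at 0.266 of Col1a2 per length in 2-mo WT mice, 0.268 in HGPS and 0.250 in 24-mo WT (geometric means). Neither difference from 2-mo WT passed the test, at 0.01 ± 0.13 in log2 in HGPS and -0.09 ± 0.19 with age (SE, adjusted p = 0.937 and 0.711). The SD of the log2 ratio between mice was not compared by a test and was 0.0896 in 2-mo WT, 0.314 in HGPS and 0.445 in 24-mo WT. The ratio of Col3a1 to Col1a1 was 5.28 in 2-mo WT, 5.00 in HGPS and 3.50 in 24-mo WT mice, and its difference with age of -0.59 ± 0.24 missed the threshold (exact permutation test, adjusted p = 0.0519). It passed without 2-mo WT replicate 4 (-0.65, exact permutation test, adjusted p = 0.0445) or 24-mo WT replicate 3 (-0.72, exact permutation test, adjusted p = 0.0104).

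Col5a2 and Col3a1, neighbours on chromosome 1, kept a tight ratio within groups, which differed between them. Col5a2 was at 0.0962 to 0.113 of Col3a1 per length in 2-mo WT mice, 0.138 to 0.212 in HGPS and 0.150 to 0.193 in 24-mo WT. Every HGPS mouse and every old mouse was therefore above every young WT mouse. The log2 ratio was higher by 0.64 ± 0.093 in HGPS and by 0.69 ± 0.072 with age (exact permutation test, adjusted p = 0.00577 for both). The difference between HGPS and 24-mo WT was -0.05 ± 0.11 (adjusted p = 0.711). The 2 genes behind these like ratios did not move alike, as Col5a2 was higher and Col3a1 lower in HGPS, while both were lower with age and Col3a1 by more. The 2 differences in HGPS were small, and each lost its call on leaving out some single mice.

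Within collagen V, the balance of Col5a1 to Col5a2 shifted in opposite directions. It was 0.486 in 2-mo WT, 0.342 in HGPS and 0.713 in 24-mo WT mice, a log2 difference of -0.51 ± 0.099 in HGPS (exact permutation test, adjusted p = 0.00577) and of 0.55 ± 0.16 with age (adjusted p = 0.0156). HGPS mice reached at most 0.398 and 2-mo WT mice were at 0.432 or more. Between HGPS and 24-mo WT the log2 difference was -1.06 ± 0.15 (adjusted p = 0.00577). Col5a3 relative to Col5a1 was 0.0250 in 2-mo WT and 0.0392 in HGPS mice, a log2 difference of 0.65 ± 0.13 (adjusted p = 0.00577), and the old mice at 0.0298 did not pass the test against 2-mo WT (0.25 ± 0.11, adjusted p = 0.0831). Against 24-mo WT the HGPS value was higher by 0.40 ± 0.14 (adjusted p = 0.0260), a call lost without HGPS replicate 1 or 6 or 24-mo WT replicate 6 (0.32 to 0.37, exact permutation test, adjusted p = 0.0519 for each). Without 24-mo WT replicate 5 the difference with age passed (0.31, exact permutation test, adjusted p = 0.0346).

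The ratio of Col5a1 to Col1a1 was the same in both young groups within the error, 0.269 in 2-mo WT and 0.279 in HGPS (0.05 ± 0.12 in log2, adjusted p = 0.711). In 24-mo WT mice it was 0.421, higher by 0.65 ± 0.19 than in 2-mo WT (exact permutation test, adjusted p = 0.0189) and than in HGPS by the comparison of -0.59 ± 0.20 (adjusted p = 0.0360). The latter was lost without any 1 of HGPS replicates 1, 2 and 6 or 24-mo WT replicates 2, 3, 5 and 6 (-0.60 to -0.50, exact permutation test, adjusted p from 0.0594 to 0.0668). Col11a1 relative to Col5a1 was 0.00102 in 2-mo WT, 0.00817 in HGPS and 0.000780 in 24-mo WT mice. Relative to Col11a2 it was 0.668, 5.94 and 0.399. Both ratios were higher in HGPS than in 2-mo WT, by 3.00 ± 0.65 and 3.15 ± 0.62 in log2 (exact permutation test, adjusted p = 0.00577 for both), and neither differed detectably with age (adjusted p = 0.410 and 0.159). These values rest on a prior count of 2, which draws the ratios of scarce genes together.

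**Figure D4:**
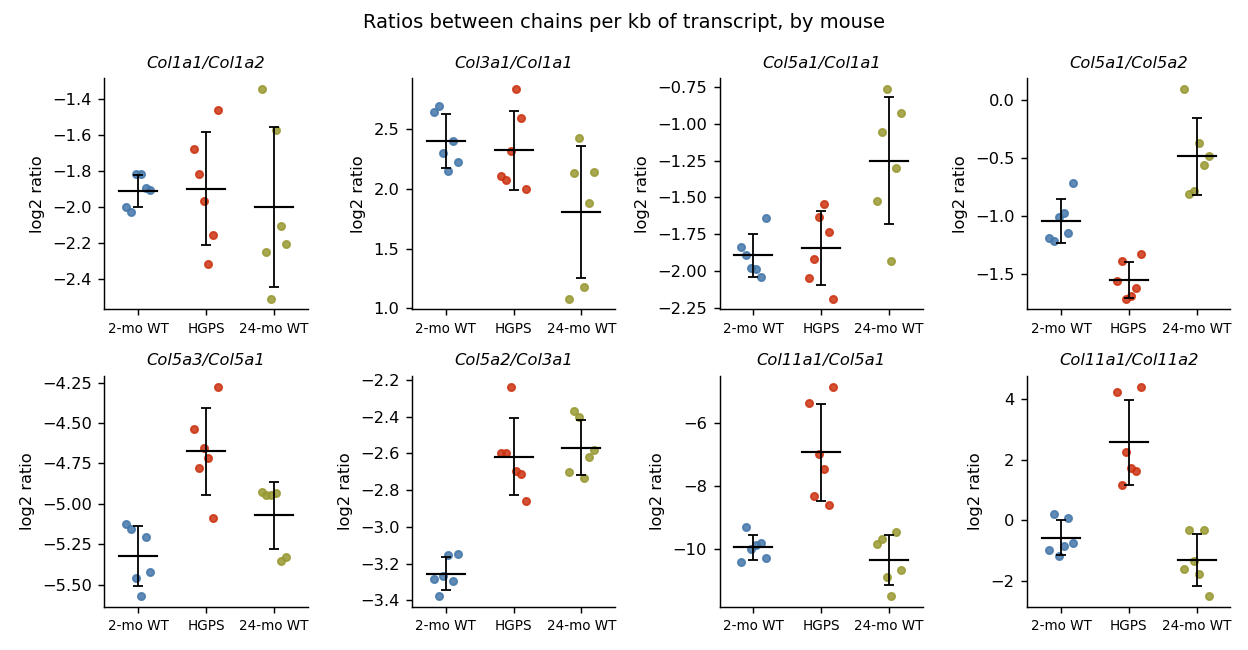
log2 of the ratio between 2 chains per kb of transcript (y axis, linear in log2) in the 6 mice of each group, with a point per mouse, a line at the mean and bars of 1 SD. Col5a2/Col3a1 is higher in all HGPS and all 24-mo WT mice than in 2-mo WT, whereas Col5a1/Col5a2 is lower in HGPS (mean -1.55) and higher in 24-mo WT (-0.49) than in 2-mo WT (-1.04).

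Mice of one group with more of one chain tended to have more of others. Deviations of log2 CPM from the group mean were compared over the 18 mice for 8 pairs, with p from 100000 permutations within groups adjusted over the pairs. Col1a1 and Col1a2 gave Pearson r = 0.897 and Spearman rho = 0.860 (permutation test, adjusted p = 0.0002 and 0.00124), and Col1a1 and Col5a1 gave r = 0.922 and rho = 0.903 (adjusted p = 8e-05 for both). Without the 2 mice farthest from the median these were 0.813 and 0.888. Col5a2 and Col3a1 gave r = 0.849 and rho = 0.796 (permutation test, adjusted p = 0.000853 and 0.00179), and 0.751 without the 2 farthest mice. Col5a1 followed its partner Col5a2 less closely, at r = 0.509 and rho = 0.447 (permutation test, adjusted p = 0.0443 and 0.103). HGPS replicate 6 was among the mice left out for every pair, and Col11a1 with Col5a1 was r = 0.583 with it (permutation test, adjusted p = 0.0283) and 0.409 without it and HGPS replicate 1.

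By the same measure the genes most like each chain were searched among those with a mean of at least 100 counts, as a description. Col1a1 was most like Col5a1 (0.922), Mrc2 (0.910), which encodes a receptor that takes up collagen, and Kremen1 (0.907). Col3a1 was most like Col1a2 (0.883), Adamts2 (0.867), which encodes the protease that removes the N-propeptide, and Col5a2 (0.849). Col5a1 was most like Col1a1, Kremen1 (0.907) and Tnxb (0.906), which encodes the fibril-binding tenascin-X. Col11a1 was most like Col12a1 (0.796), a collagen found on fibril surfaces, Thy1 (0.776) and C1qtnf3 (0.768).

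Genes that make procollagen were followed beside the chains. Of 19 genes for hydroxylation, folding and export, 7 were called higher and 2 lower in HGPS, with a median log2 fold change of 0.14, and none higher and 8 lower with age, with a median of -0.24. The 22% of all genes higher and 21.2% lower in HGPS give a total close to the 9 of 19 called here. With age 6.29% of all genes were higher and 5.38% lower. With brown fat and skeletal muscle scores 5 of the 19 were called in HGPS. With smooth muscle and fibroblast scores 0 of them were called in HGPS and 0 with age. Plod2, a lysyl hydroxylase, rose by 0.41 ± 0.072 in HGPS (adjusted p = 0.000161), from 144 ± 13.8 CPM in 2-mo WT to 192 ± 9.06 CPM (SD, n = 6). P3h2, a prolyl hydroxylase, was higher by 0.44 ± 0.11 (adjusted p = 0.00448), while P3h3 (-0.27 ± 0.081) and Crtap (-0.19 ± 0.059), members of prolyl 3-hydroxylation complexes, were lower. With age Serpinh1, the collagen chaperone HSP47, fell by 0.70 in log2 (± 0.092, adjusted p = 3.7e-05), from 1035 ± 100.3 CPM to 639 ± 55.7 CPM. Fkbp10, a prolyl isomerase that acts on procollagen, was lower by the log2 fold change of -0.55 ± 0.075 (adjusted p = 5.1e-05).

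Among 13 genes of propeptide removal and cross-linking, of which 12 were tested, 4 were higher and 1 lower in HGPS, and 8 were lower and none higher with age. In HGPS 2 were called with brown fat and skeletal muscle scores and 1 with smooth muscle and fibroblast scores, which left 3 with age. Of all genes, 22% were higher and 21.2% lower in HGPS, and 6.29% were higher and 5.38% lower with age. Lox was read at 465, 524, 424, 394, 449 and 369 CPM in 2-mo WT mice, 777, 716, 717, 844, 746 and 945 CPM in HGPS and 223, 209, 213, 235, 249 and 243 CPM in 24-mo WT. The 3 groups did not overlap, as held for 21.9% of all genes between HGPS and 2-mo WT and for 6.28% with age. The log2 fold change was 0.85 ± 0.087 in HGPS (adjusted p = 6.2e-07) and -0.94 ± 0.087 with age (adjusted p = 5.5e-07). The study instead describes Lox mRNA as minimally altered with age in its RNA sequencing, and not significantly changed by RT-qPCR. It reports more LOX protein with age in the carotid artery. The source of this difference was not tested. The rise of Lox in HGPS was 0.77 with smooth muscle and fibroblast scores in the fit and was not called (adjusted p = 0.192). Neither summed level of these markers overlapped between HGPS and 2-mo WT. Beside Lox, the related oxidase Loxl4 was higher in HGPS (0.39 ± 0.12, adjusted p = 0.0142) and Adamts2 lower (-0.22 ± 0.085, adjusted p = 0.0446). Pcolce2, an enhancer of C-propeptide cleavage, was lower with age (-1.24 ± 0.089, adjusted p = 2.1e-08). Eln, the elastin gene and not a collagen, was at 0.02 ± 0.16 in HGPS (adjusted p = 0.933) and -1.03 ± 0.16 with age (adjusted p = 0.000273), which was not called with smooth muscle and fibroblast scores (-0.89, adjusted p = 0.179).

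Proteins that bind fibrils were mixed in direction. Of 15 tested, 3 were higher and 5 lower in HGPS, and 2 were higher and 4 lower with age. In HGPS 4 were called with brown fat and skeletal muscle scores and 0 with smooth muscle and fibroblast scores, which left 1 with age. The shares over all genes were 22% higher and 21.2% lower in HGPS, and 6.29% higher and 5.38% lower with age. Col12a1 rose in HGPS from 70.8 ± 9.48 CPM to 160 ± 79.2 CPM (1.18 ± 0.25, adjusted p = 0.000831), and Comp, a cartilage and tendon matrix protein, by 0.80 ± 0.19 (adjusted p = 0.00194). Tnxb (-0.96 ± 0.20, adjusted p = 0.000735) and Ogn, a small leucine-rich proteoglycan (-0.70 ± 0.14, adjusted p = 0.000432), were lower in HGPS with no overlap. With age the fibronectin gene Fn1 was higher (0.84 ± 0.14, adjusted p = 0.000355), as was Comp (0.63 ± 0.19, adjusted p = 0.0327). Sparc, a collagen-binding glycoprotein, fell from 4788 ± 826 CPM to 1782 ± 136 CPM (-1.43 ± 0.10, adjusted p = 2.1e-08), and Dpt, dermatopontin, was lower by -0.70 ± 0.11 (adjusted p = 0.000283).

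Receptors and enzymes of collagen turnover were called 3 higher and 5 lower of 13 in HGPS and 3 lower, none higher, with age. In HGPS 5 were called with brown fat and skeletal muscle scores and 1 with smooth muscle and fibroblast scores, which left 0 with age. For this list and the regulators below, the shares over all genes in HGPS were 22% higher and 21.2% lower. With age these shares were 6.29% higher and 5.38% lower. Mmp2 (0.79 ± 0.11, adjusted p = 1.4e-05) and its activator Mmp14 (0.27 ± 0.084, adjusted p = 0.0136) were higher in HGPS. Itga10, a collagen-binding integrin chain (-1.03 ± 0.14, adjusted p = 1.6e-05), and Ctsk, a collagen-cleaving cathepsin (-0.44 ± 0.13, adjusted p = 0.00763), were lower. With age Ctsk (-0.77 ± 0.13, adjusted p = 0.000353) and Fap, a fibroblast protease (-0.64 ± 0.16, adjusted p = 0.0117), were lower. Of 19 ligands, receptors and transcription factors that act on these genes, 6 were higher and 3 lower in HGPS, and 3 were higher and none lower with age. Of these regulators 5 were called in HGPS and 1 with age under brown fat and skeletal muscle scores, and 0 in either under smooth muscle and fibroblast scores. With age 1 was called without any 1 of 2-mo WT replicates 3 and 5 and 24-mo WT replicates 1, 2 and 4. Scx, scleraxis, which activates collagen genes in tendon, rose in HGPS from 4.74 ± 1.37 CPM to 11.4 ± 2.98 CPM (1.25 ± 0.19, adjusted p = 4.6e-05), and by 0.65 ± 0.19 with age (adjusted p = 0.0342). Cebpb was higher (1.07 ± 0.21, adjusted p = 0.000506), and Sp1 (-0.38 ± 0.083, adjusted p = 0.00122) and Tgfb3 (-0.25 ± 0.067, adjusted p = 0.00559) were lower in HGPS. The TGF-beta receptor gene Tgfbr1 was higher with age (0.50 ± 0.13, adjusted p = 0.0142).

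Cartilage genes were checked because Col11a1 is best known there. Of 17, 6 were below the filter, among them Matn1, Cnmd, Snorc and Ucma, and Ucma was at 0 counts in every 2-mo WT, HGPS and 24-mo WT mouse. Of the 11 tested, 4 were higher and 3 lower in HGPS and 3 were higher and none lower with age. With age 6 were called by DESeq2 and 6 without 24-mo WT replicate 6. With brown fat and skeletal muscle scores 4 were called in HGPS and 1 with age, and with smooth muscle and fibroblast scores 0 and 1. A filter of 50 counts left 4 called in HGPS. Among all genes in the main test, 22% were higher and 21.2% lower in HGPS, and 6.29% higher and 5.38% lower with age. Acan, aggrecan, was higher in HGPS (0.65 ± 0.23, adjusted p = 0.0282), from 34.8 ± 4.50 CPM to 54.5 ± 14.7 CPM, whereas Hapln1, the link protein that binds it, was lower (-0.88 ± 0.14, adjusted p = 9.4e-05), as was Sox5 (-0.38 ± 0.13, adjusted p = 0.0200). With age Hapln1 was higher (1.58 ± 0.14, adjusted p = 2.6e-07), as was Sox6 (0.36 ± 0.095, adjusted p = 0.0165). The summed level of 8 chondrocyte markers was 38.6 to 48.5 CPM in 2-mo WT, 39.0 to 79.3 CPM in HGPS and 49.4 to 108 CPM in 24-mo WT. The ranges of this sum in HGPS and 24-mo WT overlapped, and its part in the Col11a1 result was not tested. A pair of further fibrillar collagen genes were listed beside the members. Col27a1 did not pass in either comparison (-0.25 ± 0.24, adjusted p = 0.435, and 0.03 ± 0.24, adjusted p = 0.951). Col24a1 was below the filter, with 0 counts in all 6 2-mo WT mice, 12 over the HGPS mice and 1 over the 24-mo WT mice.

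Between HGPS and 24-mo WT, 11 of 19 synthesis genes were higher and none lower, and 9 of 12 processing genes were higher and 1 lower, where 23.8% of all genes were higher and 23.6% lower. With smooth muscle and fibroblast scores 3 fibril-binding, 1 turnover, 2 regulator and 3 cartilage genes were called, and with brown fat and skeletal muscle scores 4 regulators. Plod2 (0.83 ± 0.072, adjusted p = 4.4e-08), Serpinh1 (0.87 ± 0.092, adjusted p = 4.6e-07), Lox (1.79 ± 0.089, adjusted p = 3.3e-11) and Pcolce2 (1.45 ± 0.090, adjusted p = 6.1e-10) were the named rises. Eln was higher by 1.05 ± 0.16 (adjusted p = 4.0e-05). Fibril-binding proteins split into 4 higher, led by Sparc (2.15 ± 0.10, adjusted p = 3.1e-11) and Col12a1 (1.52 ± 0.25, adjusted p = 6.4e-05), and 5 lower, led by Tnxb (-1.13 ± 0.20, adjusted p = 0.000121) and Dcn, decorin (-0.69 ± 0.095, adjusted p = 9.4e-06). Turnover genes split into 4 higher, led by Mmp2 (1.39 ± 0.11, adjusted p = 1.2e-08) and Mmp14 (0.50 ± 0.084, adjusted p = 8.3e-05), and 3 lower, led by Itga10 (-0.80 ± 0.14, adjusted p = 0.000145) and Itga1 (-0.55 ± 0.073, adjusted p = 7.0e-06). Regulators gave 6 in each direction, with Cebpb (0.95 ± 0.21) and Scx (0.60 ± 0.19) the largest rises and Smad7 (-0.70 ± 0.13) and Tgfbr1 (-0.47 ± 0.13) the largest falls. Cartilage genes gave 2 higher and 4 lower, led by Hapln1 (-2.46 ± 0.14, adjusted p = 2.5e-10) and Sox5 (-0.75 ± 0.13, adjusted p = 8.8e-05).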

How the data were processed

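The authors made stranded, ribosomal RNA-depleted, paired-end libraries from whole descending aorta, and per their methods quantified reads with salmon against GENCODE M23 (GRCm38.p6) and summarised them per gene with tximport. The submitters' processing notes name Bowtie 0.12.2, mm10 and GRCm38 instead. The estimated counts deposited by the authors were already whole numbers, with no further normalization. The members and gene lists were chosen with earlier results of these data known. Genes were matched to GENCODE M21, and 54107 of 54281 identifiers were found. Genes with 10 counts in 6 mice were tested over all 18 mice with edgeR 4.0.16 (TMM, quasi-likelihood) in R 4.3.3 with limma 3.58.1, with DESeq2 1.42.0 and limma voom as alternatives. Totals of 12413229 to 30844775 counts limit scarce genes most. Chain ratios used log2 CPM with a prior count of 2 less log2 of transcript length, and shares used CPM per kb. Python 3.11.15, numpy 2.4.6 and scipy 1.17.1 were used. Tests were checked on simulated data. Mice of one group differed by 7.64 to 93.6 times the sampling noise (chi-square per degree of freedom), so none was a repeat. Genes named beyond the members were Lox, Eln, up to 2 rises and 2 falls from each list and comparison (adjusted p under 0.05, a mean of at least 100 counts), and the 3 genes most like Col1a1, Col3a1, Col5a1 and Col11a1. Alternatives covered scaling, filter, test, covariates, replicate block, leaving out each mouse, prior count and length.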

Additional observations from a re-analysis of the deposited data

Results flagged for a closer look

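A single mouse stood far from the other 5 of its group, by Dixon's criterion for 6 values, in 4 of the 51 groups of values examined, where chance flags about 1 in 20. For Col5a1, HGPS replicate 6 was at 695 CPM and the next HGPS mouse at 478 CPM. For Col5a3, the same mouse was at 26.0 CPM and the next at 14.9 CPM. Without it the log2 fold change in HGPS against 2-mo WT was -0.39 for Col5a1 (adjusted p = 0.0236) and 0.18 for Col5a3 (adjusted p = 0.429). For Col2a1, 24-mo WT replicate 1 was at 0.469 CPM and the next mouse at 0.164 CPM. For Col2a1 in 2-mo WT, replicate 6, the mouse of 95 d, was at 0.155 CPM and the next at 0.0459 CPM. Both Col2a1 values rest on 8 counts or fewer.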

How the results depend on the processing

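Scaling by RLE, upper quartile or totals, the count filter, DESeq2, limma voom, the 2-group fit and the prior count kept the counts of called members and chain ratios within 1.5 times, as did ratios without logs. In HGPS against 2-mo WT, Col5a2 was not called without the filter or in the 2-group fit, where Col1a2 was, and a filter of 50 counts left Col11a1 untested. Called members in HGPS against 2-mo WT were 1 under the study's cut-offs, 0 with brown fat and skeletal muscle scores, 0 with smooth muscle and fibroblast scores (3 in the main test), and 1 to 4 on leaving out a mouse. The lowest count came without HGPS replicate 1 or 2-mo WT replicate 2 or 3, and Col11a1 was then the called member. With age they were 2 with smooth muscle and fibroblast scores (Col3a1 and Col5a2), 5 with brown fat and skeletal muscle scores, where Col5a1 was added, and 3 to 5 without a mouse. In HGPS against 24-mo WT they were 3 under the study's cut-offs, 2 with smooth muscle and fibroblast scores and 4 to 6 without a mouse. The causes were not tested. With smooth muscle and fibroblast scores the log2 fold change turned to 0.80, 0.60, 0.44 and 0.29 for Col1a1, Col1a2, Col3a1 and Col5a1 in HGPS against 2-mo WT, and with age to 0.45 for Col5a3, 1.54 for Col11a1 and -1.01 for Col11a2. With brown fat and skeletal muscle scores it turned to -0.19 for Col5a3 and -0.19 for Eln in HGPS and to -0.29 for Col11a2 with age, which was -0.067 by limma voom. None of these turned values was called.

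On leaving out a mouse, values that crossed 0 were Eln in HGPS (-0.092 to 0.095), Col11a2 with age (-0.28 to 0.34), Col5a1 in HGPS against 24-mo WT (-0.0041 to 0.25), and the log2 ratios Col1a1/Col1a2 (-0.077 to 0.095 in HGPS, -0.22 to 0.013 with age, -0.0018 to 0.23 between HGPS and 24-mo WT), Col5a1/Col1a1 in HGPS (-0.0079 to 0.12) and Col5a2/Col3a1 between HGPS and 24-mo WT (-0.12 to 0.00046). None of these was called in the main test. Ratios past the threshold stayed at 5 in HGPS and at 3 to 4 with age, and between HGPS and 24-mo WT ranged from 3 to 5, with 3 without HGPS replicate 1 or 6 or 24-mo WT replicate 6.

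Replicate numbers did not pair the mice, since deviations of same-numbered mice of different groups correlated at -0.162 to 0.172 over 18 pairs. With the replicate block, Col5a2 in HGPS (0.23, adjusted p = 0.0575) and Col5a3 in HGPS against 24-mo WT (0.54, adjusted p = 0.0566) were no longer called. The block changed no other member's call. No chain ratio passed with the block (0 in each comparison), where the smallest p that 6 pairs allow gave an adjusted p of 0.0577. Depth limits Col2a1, Col11a2 and WT levels of Col11a1, which rest on 24 counts a mouse or fewer.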
